A study of Mus musculus with 281 samples.

Results

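Ly6C+GMP cells are granulocyte-monocyte progenitors of the bone marrow that carry the surface protein Ly6C. Those described here were chosen by their own transcript level of Ccnb1, which encodes cyclin B1. Of the 95 single cells labelled Ly6C+GMP with sample titles from RMB4434 to RMB4528, 51 had a Ccnb1 level of at least 200 TPM and 30 had a level below 50 TPM. The remaining 14 cells lay between these limits. The 81 cells compared were part of a series of 281. Each came from bone marrow of C57BL/6 mice, a common inbred strain, and was sorted through a gate that took cells without lineage markers, with c-Kit, without Sca-1, with CD34, with a high level of the Fc receptors CD16/32 and with Ly6C. High and low cells therefore shared the strain, the gate and the label, and no treatment, age or time was given for either. The level is in TPM, a transcript's length-corrected share of all transcripts of a cell, scaled to the same total in each cell. It comes from SMART-seq2, which copies whole messenger RNAs of a single cell into cDNA. Ccnb1 therefore set the groups, and Cdk1, Aurkb and Mcm6 are followed as further cell cycle markers.

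Cyclin B1 is made as a cell leaves S phase. It binds the kinase Cdk1 to start mitosis and is destroyed through the anaphase-promoting complex when the chromosomes separate. Transcripts of the mitotic machinery peak in G2 and M phase, whereas those for licensing of replication origins, among them the MCM helicase genes, peak around G1 and early S phase. Granulocyte-monocyte progenitors divide often, and a gate on surface proteins takes cells of any phase.

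No animal or culture was named, so all cells count as 1 sample and no test was made. Ccnb1 chose the cells, and every difference between them comes from the contrast the rule used. The values are descriptions, and each SD is the spread over cells. The difference used throughout is the mean of log2(TPM + 1) over high cells minus that over low cells, and only differences of 1 log2 unit or more in either direction were counted.

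Many mitotic promoters share short elements that are bound by cell cycle complexes. The cell cycle genes homology region, or CHR, was searched here as TTTGAA or TTCGAA. The CCAAT box, bound by NF-Y, was searched as CCAAT, and the E2F site as TTTCCCGC or TTTGGCGC. Promoter stretches of 7 genes are shown as examples of both gene classes described here: Ccnb1, 4 genes of the mitotic machinery and 2 of DNA replication. Each stretch covers the 120 bases before the RefSeq start on build GRCm38.p6, written 5′ to 3′ on the gene's strand, with matches on either strand in capitals.
Ccnb1, chr13:100786487-100786606, minus strand: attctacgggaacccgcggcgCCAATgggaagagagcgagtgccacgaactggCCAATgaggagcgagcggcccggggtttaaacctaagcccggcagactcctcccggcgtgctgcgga
Cdc20, chr4:118437344-118437463, minus strand: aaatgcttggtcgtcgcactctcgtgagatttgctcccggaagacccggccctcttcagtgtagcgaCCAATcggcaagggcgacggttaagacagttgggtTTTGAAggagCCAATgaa
Ube2c, chr2:164769809-164769928, plus strand: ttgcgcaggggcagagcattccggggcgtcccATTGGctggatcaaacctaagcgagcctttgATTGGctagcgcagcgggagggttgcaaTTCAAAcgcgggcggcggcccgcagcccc
Cdk1, chr10:69352913-69353032, minus strand: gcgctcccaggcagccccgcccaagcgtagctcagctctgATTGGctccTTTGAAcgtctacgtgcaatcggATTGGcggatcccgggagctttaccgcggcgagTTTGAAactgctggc
Kif11, chr19:37376262-37376381, plus strand: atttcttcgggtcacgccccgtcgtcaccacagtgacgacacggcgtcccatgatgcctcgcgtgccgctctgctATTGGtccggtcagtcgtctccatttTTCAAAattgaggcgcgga
Dtl, chr1:191575545-191575664, minus strand: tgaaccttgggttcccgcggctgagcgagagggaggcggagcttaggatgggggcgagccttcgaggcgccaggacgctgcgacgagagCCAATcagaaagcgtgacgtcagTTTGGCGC
Mcm6, chr1:128359706-128359825, minus strand: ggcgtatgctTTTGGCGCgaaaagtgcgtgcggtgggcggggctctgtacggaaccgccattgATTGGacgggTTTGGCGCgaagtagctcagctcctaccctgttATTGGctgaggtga

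In the Cdc20 promoter a CCAAT box at −53 was followed by a CHR at −18, counted from the start, and the Kif11 promoter had the pair at −45 and −19. The Cdk1 stretch held CHR matches at −71 and −15. The Ccnb1 stretch had CCAAT boxes at −99 and −67. The 2 promoters of replication genes carried E2F matches, at −8 in Dtl and at −110 and −47 in Mcm6. Over whole lists, in RefSeq windows of 300 bases that run from 250 before to 50 after the start, a CHR stood in 60 of the 89 mitosis genes with an entry (67.4%), in 13 of 65 DNA replication genes (20%) and in 16.9% of the 8333 measured genes with an entry. CHR and CCAAT together stood in 53.9% of the mitosis genes, 10.8% of the replication genes and 7.21% of measured genes. An E2F match stood in 17 of the 65 replication genes (26.2%), 10.1% of the mitosis genes and 3.67% of measured genes. Among all genes higher in the high cells by 1 log2 unit or more, 171 of 650 with an entry had a CHR (26.3%). Among the lower ones 42 of 218 did (19.3%). CHR and CCAAT together stood in 14.8% of the higher and 10.1% of the lower genes, and E2F in 3.85% and 10.6%. Among all 27025 genes with an entry the shares were 21.7% for CHR, 41.1% for CCAAT and 1.8% for E2F. Matches of different motifs overlapped in 45 genes, 2 of them in the mitosis list. These letters are a description of the windows, and both lists were chosen knowing earlier results of these data.

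Ccnb1 itself (chromosome 13, 100778650 to 100786570, minus strand of GRCm38) ran from 205 to 1968 TPM with a median of 390.0 TPM in the high cells, and from 0 to 39.01 TPM with a median of 1.77 TPM in the low cells. In the low group 10 cells were at 0, 19 lay above 0 and below 6 TPM, and 1 stood at 39.01 TPM. Just inside the upper limit were cells at 205 and 208 TPM and just outside it cells at 192 and 184 TPM. Just outside the lower limit were cells at 71.8 and 106 TPM, and the cells just inside it had 39.01 and 5.86 TPM. The upper limit thus cut through a continuous range of levels, with 8 high cells below 250 TPM, while the lower limit fell in a sparsely filled stretch.

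Of the 8 genes for surface proteins of the gate and their relatives, 7 lay within 1 log2 unit. The other 1, Fcgr2b, was higher (12.5%, beside 7.06% of all measured genes). Fcgr2b encodes CD32, an inhibitory Fc receptor of the CD16/32 gate. It averaged 208 ± 162 TPM in high and 124 ± 139 TPM in low cells, a difference of 2.27, and was detected in 47 of 51 high and 20 of 30 low cells. Ly6c2, which encodes the Ly6C of the gate, averaged 8693 ± 2707 TPM in high and 8273 ± 2341 TPM in low cells. Fcgr3, encoding CD16, averaged 1195 ± 609 TPM in high and 1118 ± 561 TPM in low cells, and its difference on the log2 scale was −0.12. Kit averaged 50.8 ± 41.5 TPM in high and 75.8 ± 59.8 TPM in low cells, and Cd34 averaged 174 ± 188 TPM in high and 206 ± 223 TPM in low cells, with a log2 difference of 0.16. Ly6a, which encodes the Sca-1 absent from the gate, averaged 11.4 ± 15.97 TPM in high and 18.1 ± 19.4 TPM in low cells. Of 18 lymphoid markers 12 stayed below 1 TPM in every cell compared, among them Cd3e and Pax5. The summed lymphoid list ran from 558 to 6643 TPM in high and from 240 to 9028 TPM in low cells. Most of that sum came from Nkg7, Ighm and Cd79b. Nkg7 averaged 1946 TPM in high and 1746 TPM in low cells, and Ighm 720 TPM in high and 634 TPM in low cells. Cd79b averaged 110 TPM in high and 77.5 TPM in low cells. Without these members the sum ran from 0 to 101.4 TPM in high and from 0 to 126 TPM in low cells. Of 14 basophil, mast cell and eosinophil markers 6 stayed below 1 TPM in every cell. The sum of this list had a median of 3175 TPM in high and 2241 TPM in low cells. Most of it came from Srgn, which averaged 3062 TPM in high and 2435 TPM in low cells. Hdc averaged 276 TPM in high and 296 TPM in low cells. Without Srgn, Kit and Hdc the sum had a median of 0.640 TPM in high and 0.595 TPM in low cells. It still reached 254 TPM in a high cell and 592 TPM in a low cell. For the erythroid and megakaryocyte markers, 4 of 16 of which stayed below 1 TPM throughout, the median sum was 84.95 TPM in high and 176 TPM in low cells. The highest sums were 406 TPM in high and 509 TPM in low cells. For the dendritic cell markers, 7 of 14 of which stayed below 1 TPM, the median sum was 122 TPM in high and 116 TPM in low cells. Their highest sums were 482 TPM in high and 325 TPM in low cells.

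More genes were detected in the high cells. The number at 1 TPM or more ran from 3951 to 5719 with a median of 5029 in high cells, and from 4049 to 5375 with a median of 4593.5 in low cells. The mitochondrially encoded share had a median of 4.30% in high and 4.45% in low cells. The read depth and the total RNA of a cell are unknown in TPM data, so a cell with more RNA and a library with more reads cannot be told apart. The part of detected genes, or of the erythroid sum above, in the differences below was not tested beyond the comparisons of cells with similar numbers of detected genes. A gene was taken as measured when its mean reached 1 TPM in high or in low cells. Of 12052 such genes, 851 were higher in high cells (7.06%) and 289 were lower (2.4%), with a median difference of 0.11. Of the called genes 74.6% were thus higher, but 54.8% were when only the 24 high and 14 low cells with 4576.5 to 5226 detected genes were compared, and 54.97% by the ratio of mean TPM. No gene other than Ccnb1 separated the groups without overlap.

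The greatest differences towards the high cells lay in the mitotic machinery. Of the 15 leading genes by the naming rule, 13 belonged to the lists for mitosis, centromere chromatin or the anaphase-promoting complex. Of the 112 measured mitosis genes other than Ccnb1, 60 were higher (53.6%, beside 7.06% of all measured genes), 0 were lower (beside 2.4%) and 52 lay within 1 log2 unit. Their median difference was 1.12. With cells of 4576.5 to 5226 detected genes the count was 56 with a median of 1.00, beside 1233 of all 11558 genes measured there. A pseudocount of 10 TPM left 32 mitosis genes higher, beside 119 of all 12052 measured genes.

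**Figure D1:**
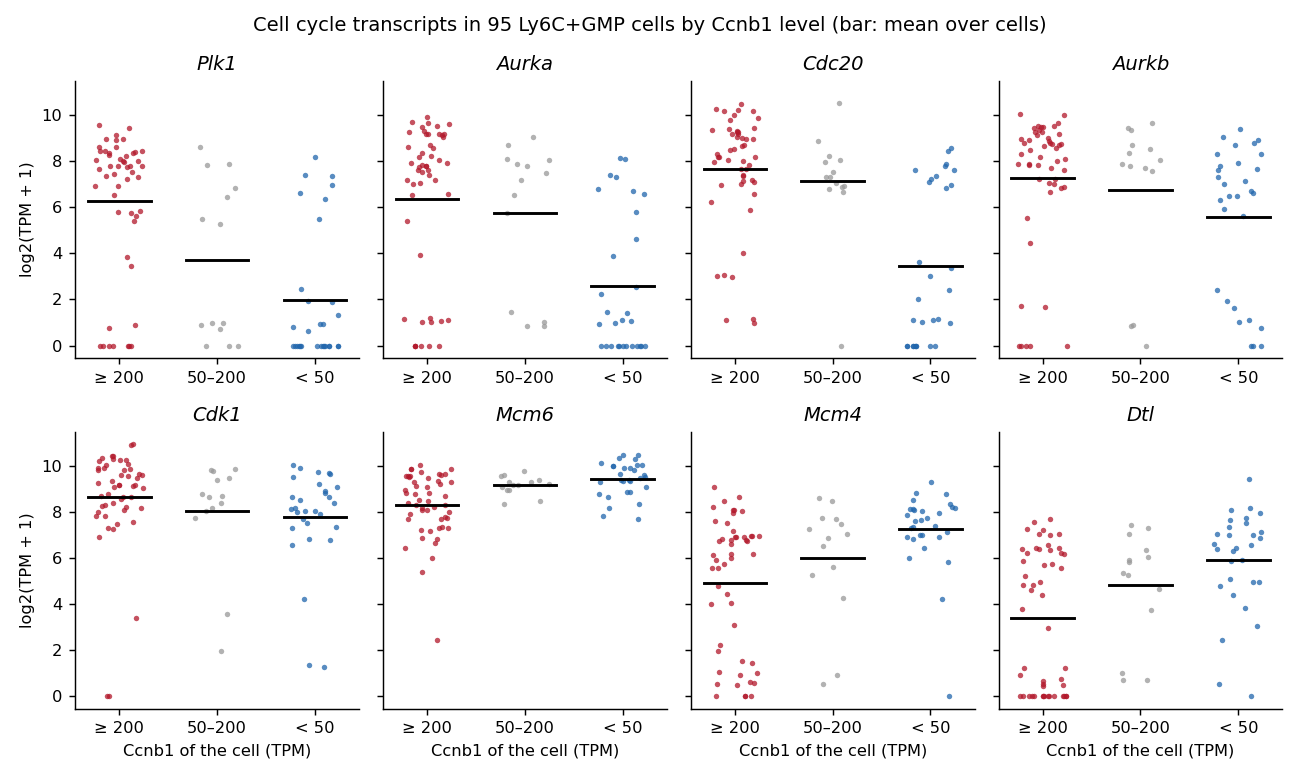
Levels of 8 cell cycle genes, as log2(TPM + 1), in each of the 95 cells, which are split along the horizontal axis by Ccnb1 into at least 200 TPM (51 cells), 50 to below 200 TPM (14) and below 50 TPM (30). Points are cells and bars are means. Plk1 has a median of 213 TPM in the left group and 0.28 TPM in the right one, and Cdc20 288 TPM in the left and 3.70 TPM in the right one, whereas the Mcm4 median is 69.4 TPM in the left and 198 TPM in the right group. The groups overlap in every panel, and Cdk1, Aurkb and Mcm6 are detected in most cells of both.

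Among kinases and cyclins of mitotic entry, Plk1, which encodes Polo-like kinase 1 (chromosome 7, 122159439 to 122169873, plus strand), ran from 0 to 756 TPM with a median of 213 TPM in high cells and from 0 to 291 TPM with a median of 0.28 TPM in low cells. It was detected in 42 of 51 high cells (82.4%, exact 95% interval 69.1 to 91.6%) and 11 of 30 low cells (36.7%, 19.9 to 56.1%). The difference was 4.31 and the ratio of means 6.53. These intervals cover counting error only. Aurka, the Aurora A kinase of spindle poles, averaged 291 ± 275 TPM in high and 43.1 ± 79.8 TPM in low cells, a difference of 3.80. The ranges overlapped for both kinases, since each was listed at 0 in some high cells and the highest low cells had 291 TPM of Plk1 and 282 TPM of Aurka.

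Ccna2, encoding cyclin A2 of S and G2 phase, averaged 226 ± 157 TPM in high and 96.8 ± 96.8 TPM in low cells, a difference of 2.73. Cyclin B2, from Ccnb2, averaged 299 TPM in high and 119 TPM in low cells (2.59). Ccnf, encoding a substrate receptor of a ubiquitin ligase, differed by 2.34 and the CDK subunit gene Cks2 by 1.34. Cdk1, the partner of cyclin B1, differed less: it averaged 653 ± 469 TPM in high and 379.7 ± 293 TPM in low cells, a difference of 0.85 that was not counted, and every low cell had it above 1 TPM. Of 20 genes in this list 11 were higher and 0 lower. The inhibitory kinase gene Wee1 (−0.76) and the phosphatase gene Cdc25a (−0.65), which acts at S phase entry, stood at the other end.

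All 4 genes of the chromosomal passenger complex, which corrects chromosome attachment and steers cytokinesis, were higher. Aurkb, its Aurora B kinase, ran from 0 to 1072 TPM with a median of 314 TPM in high cells and from 0 to 673 TPM with a median of 101.4 TPM in low cells (difference 1.69). Birc5, encoding survivin, averaged 356 ± 237 TPM in high and 199.6 ± 184 TPM in low cells (1.98), and the borealin gene Cdca8 353 ± 247 TPM in high and 170.4 ± 163 TPM in low cells (1.99). Incenp, the scaffold, was lower in level at 46.5 ± 52.4 TPM in high and 25.6 ± 43.5 TPM in low cells (1.30). The groups overlapped for each of the 4.

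Spindle genes showed the most members past the limit, 18 of 29, with a median of 1.30. Kif2c, a microtubule-depolymerising kinesin, averaged 86.2 ± 81.3 TPM in high and 20.2 ± 48.2 TPM in low cells (3.36). Hmmr, a spindle assembly factor, was detected in 39 high cells (76.5%) and 7 low cells (23.3%), at 52.97 ± 63.4 TPM in high and 14.9 ± 49.6 TPM in low cells. The Hmmr mean of low cells was 6.32 TPM without the highest one. Kif11, the motor that pushes spindle poles apart, averaged 113 ± 92.1 TPM in high and 36.2 ± 48.3 TPM in low cells (2.82). The spindle gene Tpx2 averaged 122 ± 96.7 TPM in high and 38.8 ± 54.2 TPM in low cells (2.74). Tubulin genes were also in this group: Tubb4b differed by 1.54 and Tuba1c by 2.50. Stmn1, encoding a tubulin-binding protein, differed by −0.25.

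At the kinetochore, which joins chromosomes to the spindle, 12 of 27 genes were higher and 0 lower. The Ndc80 complex genes Nuf2 (112 ± 113 TPM in high, 28.3 ± 53.01 TPM in low cells) and Spc25 (195 ± 170.0 TPM in high, 74.5 ± 107 TPM in low cells) differed by 2.89 and 2.64, and Ndc80 itself by 1.72. Of the checkpoint genes, Bub1 differed by 1.62 and the kinase gene Ttk by 2.22, whereas Mad2l1 differed by −0.57. Cenpa, the histone H3 variant of centromeres, averaged 317 ± 280.3 TPM in high and 60.2 ± 122 TPM in low cells, a difference of 4.19, the third greatest of the leading genes. In the other centromere genes the differences were smaller. Of the 19 genes of that list, Cenpa among them, 7 were past the limit, all towards the high cells, and the median was 0.73.

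Genes of mitotic exit and cytokinesis were mixed. Cdc20, an activator of the anaphase-promoting complex (chromosome 4, 118432901 to 118437352, minus strand), ran from 0.960 to 1438 TPM with a median of 288 TPM in high cells and from 0 to 378 TPM with a median of 3.70 TPM in low cells, a difference of 4.23. Ube2c, the complex's ubiquitin-conjugating enzyme, averaged 328 ± 365 TPM in high and 35.5 ± 76.2 TPM in low cells, a difference of 3.83 and a ratio of 9.22. The core subunits of the complex mostly lay within 1 log2 unit, so that 6 of 21 genes of that list were higher. Pttg1, which encodes securin, was the 1 lower gene (−1.15). In cytokinesis 6 of 12 were higher, led by Prc1, a bundler of the central spindle (129 ± 141 TPM in high, 32.99 ± 62.7 TPM in low cells), and the kinesin gene Kif20a (111 ± 109 TPM in high, 31.6 ± 62.8 TPM in low cells), with differences of 3.26 and 3.13.

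Chromosome condensation genes were detected widely in both groups. Top2a, encoding the topoisomerase that untangles sister chromatids, averaged 364 TPM in high and 215 TPM in low cells (1.05), and the condensin gene Smc2 198 TPM in high and 126 TPM in low cells (1.35). Mki67, the proliferation antigen, averaged 46.3 TPM in high and 28.9 TPM in low cells (1.36). In all, 9 of these 20 genes passed the limit towards the high cells and 0 the other way, and of 11 cohesin genes 3 were higher and 0 lower. The abundant chromatin protein gene Hmgn2 averaged 4193 TPM in high and 4215 TPM in low cells.

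**Figure D2:**
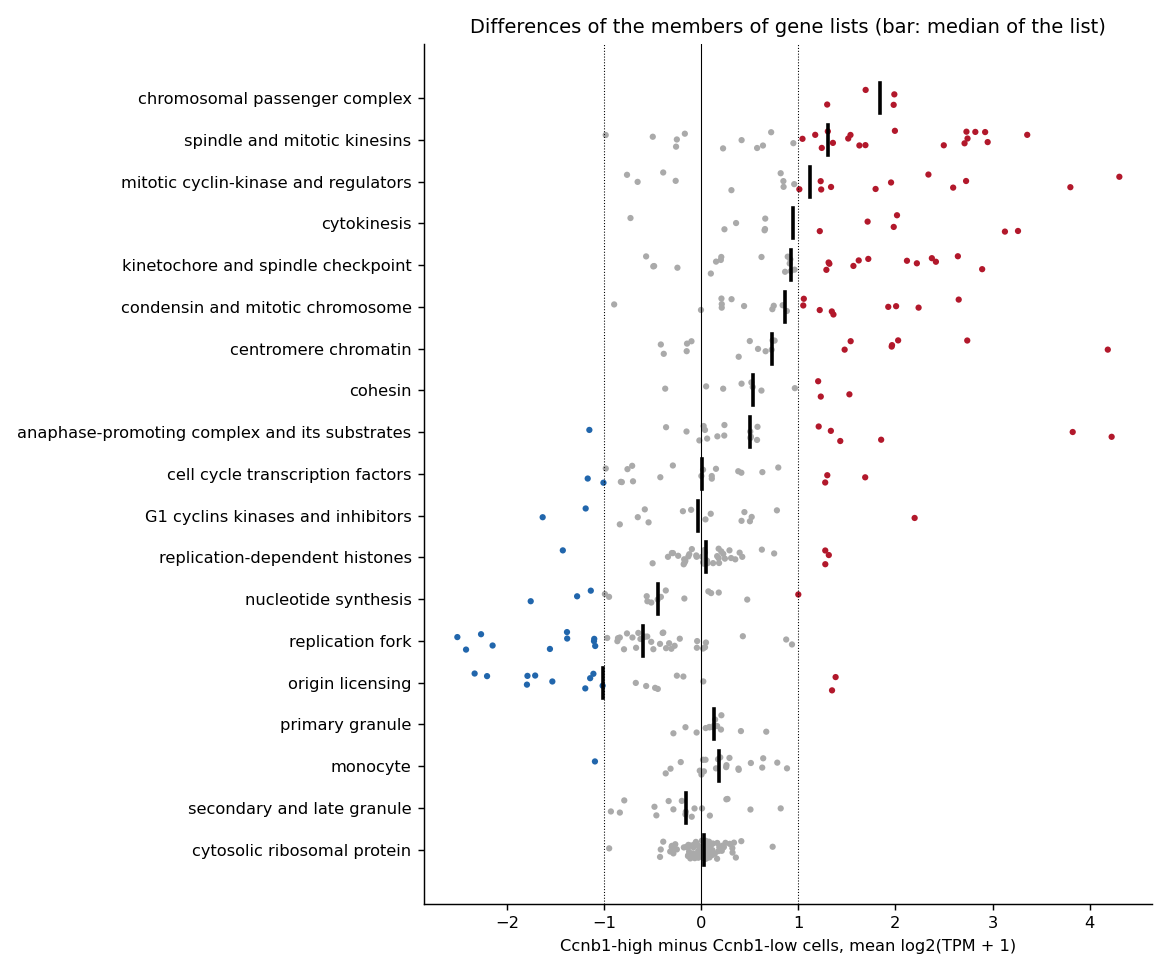
Difference between high and low cells in mean log2(TPM + 1) (horizontal axis) for each measured member of 19 gene lists. Points are genes, coloured red from 1 and blue from −1 log2 unit, dotted lines mark these limits and black bars are list medians. Mitotic lists lie right of 0, origin licensing (median −1.01) lies left, and granule, monocyte and ribosomal protein lists lie around 0.

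Origin licensing and replication transcripts were at lower levels in the high cells. Of 77 DNA replication genes 23 were lower (29.9%) and 3 higher (3.90%), with a median of −0.57, beside 2.4% lower and 7.06% higher over all genes. Mcm6, a subunit of the replicative helicase (chromosome 1, 128331590 to 128359664, minus strand), was detected in all 81 cells. It ran from 4.50 to 1050 TPM with a median of 358 TPM in high cells and from 208 to 1408 TPM with a median of 723 TPM in low cells, a difference of −1.11. The difference was greater for Mcm4, at 99.8 ± 119 TPM in high and 213 ± 136 TPM in low cells (−2.33). Those of Mcm5 (−1.79), Mcm2 (−1.71), Mcm3 (−1.19) and Mcm7 (−1.01) were also past the limit, so that all 6 subunits of the helicase were lower. Mcm5 was above 117 TPM in every low cell, while the lowest high cell was at 0.

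The helicase loaders were lower as well. Cdt1 averaged 88.6 ± 113 TPM in high and 207 ± 167 TPM in low cells (−2.20), and Cdc6 71.5 ± 124 TPM in high and 139 ± 138 TPM in low cells (−1.79). Orc6, a subunit of the origin recognition complex, differed by −1.53 and Orc2 by −1.14. Gmnn, which encodes the Cdt1 inhibitor geminin, differed by −0.67. Exceptions in the licensing list were Dbf4, the activator of the origin-firing kinase, and Mcm10, a factor of fork assembly, at 1.38 and 1.35. With cells of 4576.5 to 5226 detected genes, Mcm10 differed by −0.23, so its direction was not kept.

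At the fork 10 of 41 genes were lower (24.4%) and 0 higher, beside 2.4% and 7.06% of all measured genes. Dtl, which directs the destruction of Cdt1 in S phase, was detected in 30 of 51 high cells (58.8%, 44.2 to 72.4%) and 28 of 30 low cells (93.3%, 77.9 to 99.2%), at 43.2 ± 54.9 TPM in high and 119.9 ± 135 TPM in low cells (−2.51). Gins2 of the helicase assembly (−2.27), the chromatin assembly factor gene Chaf1b (−2.42) and Uhrf1, which carries DNA methylation through replication (−2.15), were among the 15 leading lower genes. So were the repair genes Ung (−2.63), encoding uracil glycosylase, and Msh6 (−2.11), of mismatch repair. The fork clamp gene Pcna, by contrast, averaged 479 TPM in high and 619 TPM in low cells, a difference of −0.51. Of 17 nucleotide synthesis genes 3 were lower (17.6%, beside 2.4% of all measured genes), including Shmt1 (−1.76). The 1 higher gene (5.88%, beside 7.06%) was Rrm1, which stood at the limit (1.00). Its partner subunit gene Rrm2 differed by −0.56.

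Of 16 measured regulators of the G1 phase 13 lay within the limit. Among them 1 was higher (6.25%) and 2 were lower (12.5%), beside 7.06% and 2.4% of all measured genes. Cdk4 averaged 1007 ± 430.5 TPM in high and 1127 ± 493 TPM in low cells, and Cdk6 556 ± 168 TPM in high and 512 ± 139 TPM in low cells. Cyclin E2, from Ccne2, averaged 44.9 ± 69.9 TPM in high and 104.7 ± 127 TPM in low cells (−1.63). Ccnd1 was detected in 3 high and 7 low cells (−1.19), whereas the more abundant cyclin D genes Ccnd2 and Ccnd3 differed by −0.84 and −0.54. Cdkn2d, encoding the CDK4/6 inhibitor p19INK4d, was the 1 higher gene of 16, at 131 ± 136 TPM in high and 81.6 ± 148 TPM in low cells (2.20). The 22 cell cycle transcription factor genes had a median of 0.01. Of these, 3 were higher (13.6%) and 2 lower (9.09%), beside 7.06% and 2.4% of all measured genes. The higher ones were E2f4 (1.69), Lin37 (1.30) and Rbl1 (1.28), and the lower ones Mybl2 (−1.17) and E2f8 (−1.01). Foxm1, an activator of mitotic genes, averaged 14.5 TPM in high and 18.6 TPM in low cells (0.11). Replication-dependent histone genes, most of whose transcripts have no poly(A) tail, had 3 of 42 higher (7.14%) and 1 lower (2.38%). These shares were near those over all genes.

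In single cells the groups overlapped widely on both lists, with medians that differed in opposite directions. The mean of log2(TPM + 1) over the mitosis list ran from 2.38 to 6.27 with a median of 4.85 in high cells, and from 2.13 to 4.89 with a median of 3.60 in low cells. In 25 of the 51 high cells it exceeded every low cell, while 8 high cells lay below the low median. Those 8 had Ccnb1 levels of 258 to 989 TPM and 3951 to 4751 detected genes. The mean over the replication list ran from 3.20 to 6.25 with a median of 5.22 in high cells and from 4.51 to 6.73 with a median of 5.72 in low cells. It was below every low cell in 14 high cells and above the low median in 11. Both held in 8 high cells, which had a mitosis mean above every low cell and a replication mean below every low cell.

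**Figure D3:**
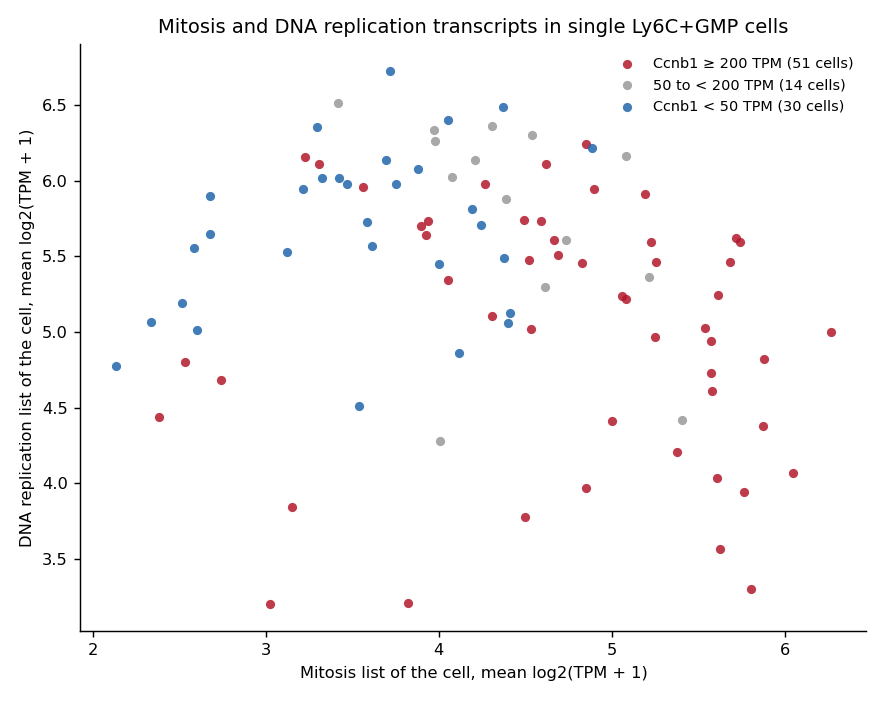
Mean log2(TPM + 1) over the mitosis list (horizontal axis) and over the DNA replication list (vertical axis) in each of the 95 cells, coloured by Ccnb1 level. The 51 cells with at least 200 TPM spread over the whole plot and make up nearly all of its right side, the 30 below 50 TPM have mitosis means up to 4.89 and replication means from 4.51, and the 14 between them lie mostly at high replication means (median 6.08).

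Within the high cells, levels also differed with Ccnb1. In the 24 cells with at least 400 TPM the median replication mean was 4.67 and the median mitosis mean 5.48, against 5.51 and 4.62 in the 27 cells with 200 to below 400 TPM. Median Cdc20 was 518 TPM at 400 TPM or more and 247 TPM below. Median Aurka was 386 TPM at 400 TPM or more and 127 TPM below. Median Mcm5 was 90.7 TPM at 400 TPM or more and 238 TPM below, and median Mcm6 was 257 TPM at 400 TPM or more and 451 TPM below.

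The 14 cells with 50 to below 200 TPM of Ccnb1 resembled low cells in replication and high cells in part of mitosis. Of the 77 replication genes 54 had a mean log2 level nearer to the low cells, and the list's median difference from low cells was 0.10. Of the 112 mitosis genes 68 were nearer to the high cells, with a median difference of 0.89 from the low cells and of 0.29 between high cells and these. The share varied by role. All 4 passenger complex genes and 18 of 20 condensation genes were nearer to the high cells, against 9 of 20 genes of the cyclin-kinase list and 5 of 12 of cytokinesis. Plk1 averaged 81.9 TPM and Kif20a 44.6 TPM in the cells between, where high cells averaged 215 and 111 TPM and low cells 32.9 and 31.6 TPM. Spc25 and Prc1 averaged 237 and 131 TPM in the cells between, against 195 and 129 TPM in high cells and 74.5 and 32.99 TPM in low cells. Ccnb2 was at 113 TPM in the cells between, near the 119 TPM of low cells. These placements rest on 14 cells, in which Plk1 ranged from 0 to 395 TPM.

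**Figure D4:**
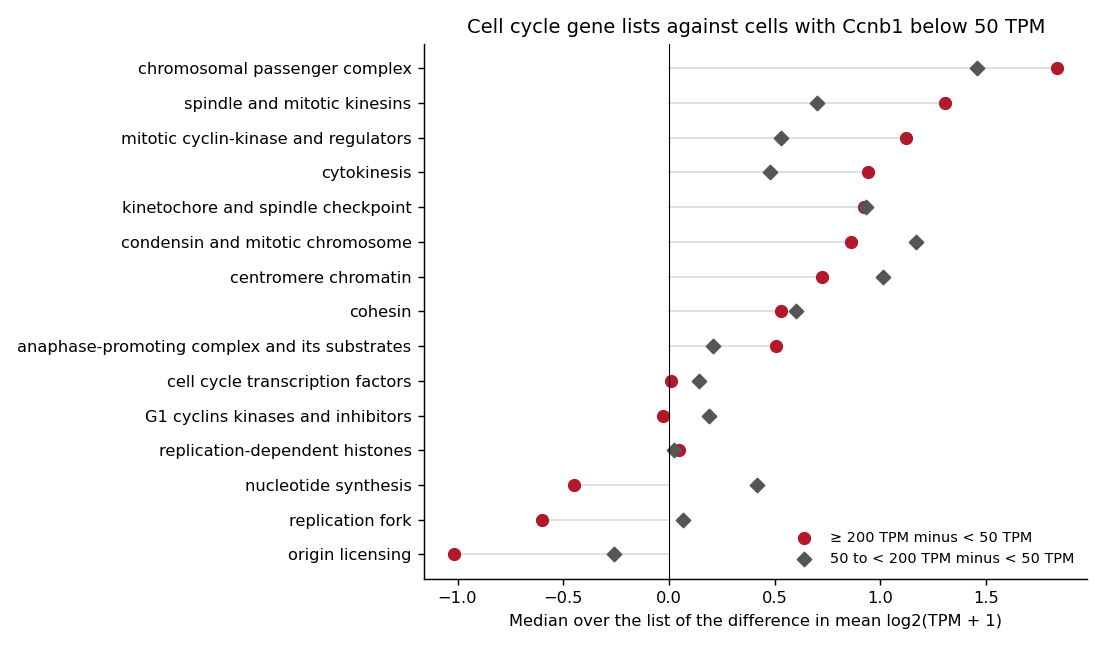
Median over each of 15 cell cycle lists of the difference in mean log2(TPM + 1) from the 30 cells below 50 TPM of Ccnb1, for the 51 cells of at least 200 TPM (red circles) and the 14 cells of 50 to below 200 TPM (grey diamonds). Both sit right of 0 for the passenger complex (1.84 and 1.46), whereas for the replication fork list the circle is at −0.60 and the diamond at 0.07.

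Granule and monocyte transcripts mostly lay within the limit, as did 10912 of all 12052 measured genes. None of the 14 genes of the primary granule list passed the limit either way (median 0.13). Ms4a3, a membrane protein gene placed in that list, averaged 3198 ± 1739 TPM in high and 2511 ± 1762 TPM in low cells (0.67). Of 18 secondary and late granule genes 0 passed the limit either way (median −0.16). Lyz2, encoding lysozyme, averaged 989.8 ± 1213 TPM in high and 1834 ± 2479 TPM in low cells (−0.84). Of 22 monocyte genes 0 were higher and 1 was lower (median 0.18). That gene, Cd68, encodes a lysosomal membrane protein and differed by −1.09. Csf1r, encoding the receptor CD115, averaged 93.8 ± 135 TPM in high and 74.2 ± 108 TPM in low cells (0.88). Of 11 neutrophil regulators 1 was higher (9.09%), a share near the 7.06% of all measured genes. This was Cebpa, at 12.99 ± 26.5 TPM in high and 2.03 ± 5.94 TPM in low cells. Among cells of 4576.5 to 5226 detected genes Cebpa differed by −0.24. Of the 5 measured genes of the erythroid and megakaryocyte list 2 were lower (40%, beside 2.4% of all measured genes) and 0 higher. Tfrc, which encodes the transferrin receptor for iron uptake, averaged 38.4 ± 48.6 TPM in high and 89.4 ± 93.6 TPM in low cells (−1.47). Cd9, encoding a membrane protein of the tetraspanin family, averaged 46.2 ± 76.7 TPM in high and 80.9 ± 94.4 TPM in low cells (−1.03).

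Housekeeping lists other than ribosome biogenesis had medians close to 0, beside 0.11 over all measured genes. None of the 82 cytosolic ribosomal protein genes passed the limit either way, and their median was 0.03. The median was 0.19 for 78 respiratory chain and ATP synthase genes, −0.13 for 14 glycolysis genes and −0.01 for 38 proteasome genes. Of 27 ribosome biogenesis genes 1 was higher (3.70%) and 5 were lower (18.5%), beside 7.06% and 2.4% of all measured genes. Their median was −0.29, with Rrp1b and Nop2 at −1.16 and −1.12.

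A few leading genes lay outside the cell cycle lists. Atf4, a transcription factor gene of the integrated stress response, averaged 143 ± 100.4 TPM in high and 63.9 ± 94.5 TPM in low cells, with detection in 45 of 51 high cells (88.2%, 76.1 to 95.6%) and 14 of 30 low cells (46.7%, 28.3 to 65.7%). The difference was 3.27. Ppa2, encoding a mitochondrial pyrophosphatase, differed by 2.85. On the lower side 7 of the 15 leading genes were in none of the replication or repair lists. They included Vkorc1, of the vitamin K cycle (68.9 ± 80.4 TPM in high, 154 ± 130.2 TPM in low cells, −2.46), the nuclear pore gene Aaas (−2.29), and Hat1, which acetylates new histone H4 (174 ± 167 TPM in high, 352 ± 216 TPM in low cells, −2.02).

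The same limits were then applied to the other labels, whose cells the rule did not use. Each label is 1 sample, and the differences between labels were not tested. In the 11 high and 33 low cells labelled CMP, common myeloid progenitors, 91 of 110 mitosis genes were higher (82.7%), where 28.3% of all genes were. In the 15 high and 21 low Ly6C-GMP cells 75 of 111 were higher (67.6%), beside 13.9% of all genes. The count was 62 of 109 (56.9%, beside 20.8%) in 8 high and 13 low proneu cells, 61 of 112 (54.5%, beside 19.1%) in 13 high and 18 low preNeu cells, and 49 of 111 (44.1%, beside 14%) in 11 high and 19 low tpMo cells. The list median was from 0.85 in tpMo to 2.93 in CMP cells. The marker Cdk1 differed by 6.79 in CMP, 4.19 in Ly6C-GMP, 2.67 in tpMo and 1.81 in preNeu cells, but by −1.17 in proneu cells. Aurkb differed by 6.30 in proneu, 4.99 in CMP, 1.09 in Ly6C-GMP and 0.96 in preNeu cells, but by −0.50 in tpMo cells. Of the 15 leading higher genes of the Ly6C+GMP cells, 12 to 14 were past the limit in each of these 5 labels. Of the 15 leading lower genes, 10 passed −1 in tpMo, 8 in Ly6C-GMP, 5 in proneu, 3 in CMP and 2 in preNeu cells. Over all genes the lower shares were 12.9% in tpMo, 6.64% in Ly6C-GMP, 12% in proneu, 3.53% in CMP and 6.22% in preNeu cells. Of the same 15 genes, 11 lay below 0 in tpMo, 10 in CMP, 9 in Ly6C-GMP and in proneu, and 8 in preNeu cells. Some passed the limit the other way, among them Hat1 (2.66 in CMP, 2.18 in proneu) and Dhps (1.67 in CMP, 2.84 in proneu). Ung and Vkorc1 were at 0 in both preNeu groups.

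Lower replication transcripts were less regular across labels. In tpMo cells 41 of 76 replication genes were lower (53.9%, beside 12.9% of all genes), with a median of −1.10. In Ly6C-GMP cells 19 of 77 were lower and 13 higher (24.7% and 16.9%, beside 6.64% and 13.9%), with a median of −0.10. In CMP cells 10 of 77 were lower and 26 higher, beside 3.53% and 28.3%, with a median of 0.33. The CMP groups also differed in detected genes, with a median of 4262 in high and 3014 in low cells, and 11 of 14 primary granule genes were higher in the high CMP cells. The proneu cells had 18 of 76 lower and 13 higher, beside 12% and 20.8%, and the preNeu cells 16 of 74 lower and 9 higher, beside 6.22% and 19.1%. Their medians were 0.03 in proneu and −0.13 in preNeu cells. Mcm4 differed by −0.51 in preNeu and −3.97 in tpMo cells, and in the other 3 labels by values between these, so that it passed the limit in 4 of the 5. The marker Mcm6 differed by −2.39 in preNeu, −1.75 in CMP, −1.50 in tpMo, −0.61 in Ly6C-GMP and 0.04 in proneu cells. The part of detected genes in these values was not tested.

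**Figure D5:**
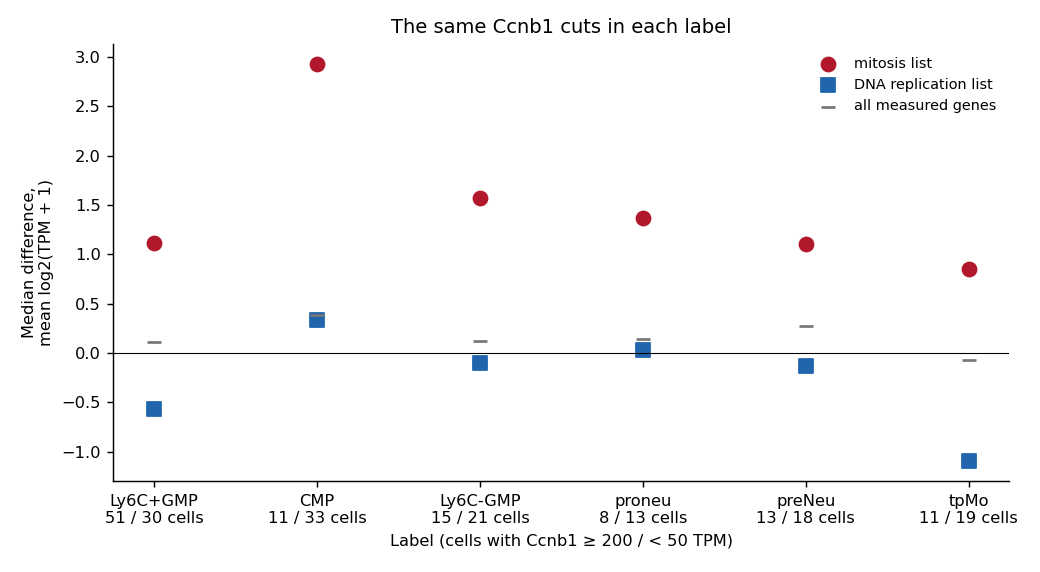
Median difference in mean log2(TPM + 1) between cells with at least 200 TPM and cells below 50 TPM of Ccnb1 (vertical axis) in the Ly6C+GMP cells and in 5 other labels, with numbers of cells below each label. Red circles are the mitosis list, blue squares the DNA replication list and grey dashes all measured genes. The mitosis list is above all genes in each label, and the replication list is below 0 in Ly6C+GMP (−0.57), Ly6C-GMP, preNeu and tpMo cells (−1.10) and above it in CMP cells (0.33).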

How the data were processed

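Single-cell SMART-seq2 libraries of mouse bone marrow cells were made from sorted cells, per the labels' protocols. The authors deposited 1 table of TPM values for 43280 gene symbols. The submitters' processing notes name RSEM 1.2.19 and GRCm38. The aligner and the annotation, not given in the sources used here, could change the values of similar genes. TPM corrects for transcript length and puts cells on a common total (998993 to 999869 here), and the libraries have no molecular identifiers. Cells were taken by label, title and Ccnb1 level, with doublets not called and none of the 95 left out. In all 95 cells 4 housekeeping genes, Gapdh, Actb, Eef1a1 and B2m, had values above 0, and no pair of cells had identical values. Differences of mean log2(TPM + 1) were computed with pandas 2.3.3 and checked on simulated data. Genes with a lower mean than 1 TPM in both groups were left out, and detection in a cell meant 1 TPM or more. The members and the 36 gene lists were chosen with earlier results of these data known, and 5 list members had no symbol in the table. Genes named were the 15 leading each way (mean of at least 20 TPM, detected in at least 50% of the higher group, ratio of means in the same direction, no predicted or ribosomal protein genes), 3 of each list at 5 TPM or more, and all passenger complex, licensing and G1 genes. Further list members, and their wording, were chosen with their values in view. Intervals of shares are exact Clopper-Pearson 95% intervals. Gene positions are those of GENCODE M21 on GRCm38. Reads of similar copies (Ly6c2 with Ly6c1, histone and tubulin genes) were divided by estimate, and overlapping genes cannot be separated by strand. Alternatives were other pseudocounts, filters, scalings, Ccnb1 limits and subsets of cells.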

Additional observations from a re-analysis of the deposited data

How the results depend on the processing

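No paired analysis was possible because the labels give no replicate numbers and each group is 1 sample. Under 11 alternatives the median difference kept its direction for the mitosis list (0.68 to 1.53) and for the DNA replication list (−1.06 to −0.44). Counts past 1 log2 unit depended on the scale. With a pseudocount of 10 TPM, 119 genes were higher and 42 lower, with 32 mitosis genes higher, 0 replication genes higher and 12 lower. With a pseudocount of 0.1 TPM, 1851 genes were higher and 721 lower, with 5 replication genes higher. By the ratio of mean TPM, 2041 were higher and 1672 lower, with 8 replication genes lower. Comparing 24 cells of at least 400 TPM of Ccnb1 with 29 below 10 TPM gave 532 lower genes, 41 of them in the replication list. Comparing 64 cells of at least 100 TPM with 31 below it gave 5 replication genes higher. The 24 high and 14 low cells with 4576.5 to 5226 detected genes gave 1018 lower genes, and there Fzr1 (−0.26), Cebpa (−0.24) and Mcm10 (−0.23) reversed their direction. The cause was not tested. Of the 89 named genes past the limit, 86 kept their direction in that subset, and every one with a value did under the other alternatives. Fewer stayed past the limit: 50 with a pseudocount of 10 TPM, 51 by the ratio of mean TPM, 70 in that subset of cells and 81 to 89 under the others. Removing the highest cell of each gene changed no direction among them. Cells are not replicates, read depth is unknown in TPM, and a spread of cells near 1 SD of the level limits what single genes show.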
